A study of Arabidopsis thaliana with 3 samples.

Results

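Among the binding sites of TSN1 in Arabidopsis thaliana seedlings, 212 of 5673 carried the label intergenic in the authors' annotated table, which means that the authors assigned them to no gene. All rows with that label were taken, and no value of the sites entered the choice. The other 5461 sites each had a gene identifier and are called gene-assigned below. Of the intergenic sites, 141 lay in the nuclear genome, 65 in the plastid genome and 6 in the mitochondrial genome. TSN1 is Tudor staphylococcal nuclease 1, a protein with nuclease-like domains and a Tudor domain that is known from stress granules.

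The sites came from iCLIP2, in which ultraviolet light joins protein to RNA in living tissue and reverse transcription stops at the joined nucleotide. There was 1 group of 3 biological replicates: 14-day-old seedlings, mostly tissue from above ground, whose TSN1 carried a green fluorescent tag and was driven by its own promoter (pTSN1::GFP:TSN1) in the wild-type background Col-0. The line had a wild-type background, so the labels give no loss of the plant's own TSN1, and each replicate pooled tissue of 3 plates. Seedlings were collected 10 h after lights on and received 2000 mJ/cm2 at 254 nm. No control pull-down and no value per replicate was used here, so TSN1 crosslinks and background of the pull-down cannot be told apart, the spread between replicates is unknown, and no test between groups was possible. Library depth is also unknown here, and intervals below are Wilson 95% intervals that cover the counting of sites and treat sites as independent.

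A site assigned to no gene can have several kinds of origin. Genome annotations list the transcripts known to their makers, and RNA also arises from unlisted small RNA genes, from transposons and from stretches just before or after a listed gene. In chloroplasts most genes are transcribed together with their neighbours as long precursor RNAs, which are then cut and trimmed. The stretches between such genes are therefore part of RNA molecules although no gene is listed there. Transfer RNAs too are made as longer precursors, whose ends are cut off.

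Intergenic sites made up a small part of nuclear sites and a larger part of organelle sites. They were 141 of 5488 nuclear sites (2.57%, interval 2.18 to 3.02), 65 of 171 plastid sites (38.0%, 31.1 to 45.5) and 6 of 14 mitochondrial sites (42.9%, 21.4 to 67.4). The plastid genome held 30.7% of intergenic sites (24.8 to 37.2) and 1.94% of gene-assigned sites (1.61 to 2.34). By the spans of a reference gene table, 45 of the 65 plastid and 91 of the 141 nuclear sites lay outside every gene. Of the plastid sites, 14 lay inside the span of rbcL. Among the nuclear chromosomes, chromosomes 1 and 5 held 37 intergenic sites each, beside 1496 and 1175 gene-assigned sites. Chromosome 2 held 29 beside 661, and chromosomes 3 and 4 held 19 each beside 1104 and 911. Relative to gene-assigned sites, intergenic sites were thus most frequent on chromosome 2. No interval was computed for this ranking, and 6 of the 29 sites there had another intergenic site within 100 nt on their strand. Plus-strand sites were 111 of 212 (52.4%, 45.7 to 59.0), a share whose interval holds the 51.8% of gene-assigned sites.

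The median score of intergenic sites was above that of all gene-assigned sites in the nucleus and below it in the plastid, though nuclear tRNA sites scored higher still. The score is the authors' own value per site and has no stated unit, so it serves to rank sites within this list only. In the nuclear genome the median was 20.8 (quartiles 10.8 and 44.5) for intergenic sites and 12.3 (8.14 and 18.6) for gene-assigned sites. By gene type, the nuclear gene-assigned median was 59.99 (26.0 and 108) for tRNA sites, 18.5 (13.4 and 22.6) for small nuclear RNA sites, 12.2 (8.09 and 18.2) for protein-coding genes and 8.83 (6.09 and 12.8) for small nucleolar RNA sites. Intergenic scores thus lay between those of tRNA sites and those of protein-coding genes, and a high score was not particular to them. In the plastid genome the median was 12.1 (5.94 and 22.6) for intergenic sites and 19.9 (12.2 and 35.4) for gene-assigned sites. Of nuclear intergenic sites, 70.2% (62.2 to 77.1) scored above the median of all sites, against 49.0% (47.7 to 50.3) of nuclear gene-assigned sites. In the plastid these shares were 44.6% (33.2 to 56.7) and 73.6% (64.5 to 81.0). The ranges overlapped widely, and these differences were not tested, since sites of 1 pooled list are not replicates.

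**Figure D1:**
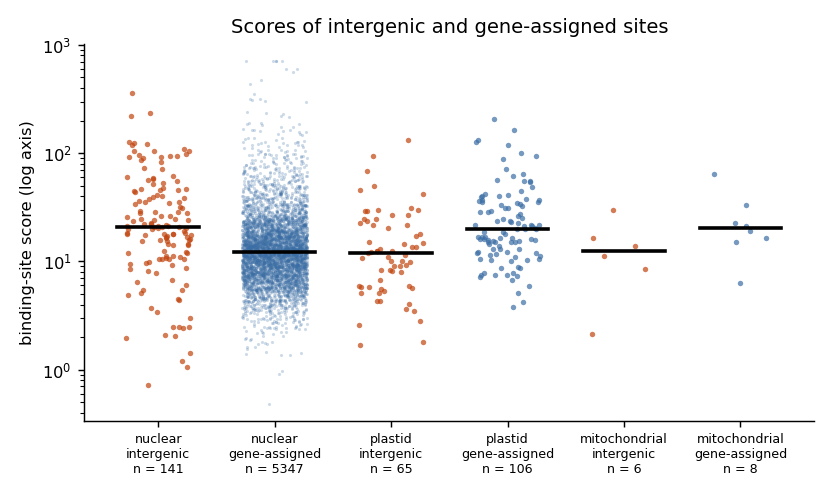
Scores of all binding sites on a log axis, by genome and by whether the authors assigned a gene. Each point is 1 site and each bar is a median: 20.8 for the 141 nuclear intergenic sites against 12.3 for the 5347 nuclear gene-assigned sites, and 12.1 for the 65 plastid intergenic sites against 19.9 for the 106 plastid gene-assigned sites.

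The share of intergenic sites among nuclear sites was larger in the upper score classes. It was 1.81% (1.23 to 2.65) among sites below the 25th percentile of all scores and 1.23% (0.768 to 1.96) between the 25th percentile and the median. It reached 6.44% (4.06 to 10.1) between the 90th and 95th percentile of score and 12.2% (8.47 to 17.3) between the 95th and 99th. Sites a few nt apart count separately in these shares, such as neighbours on chromosome 5 with scores of 89.3, 92.4 and 104. The shares were not computed with such neighbours joined. In the highest 1%, 4 of 52 nuclear sites were intergenic (7.69%, 3.03 to 18.2), and none of the 10 highest-scoring sites was. Of the 100 highest-scoring sites, 14 were intergenic, and 13 of these were nuclear. Plastid sites ran the other way, though not evenly: 63.6% (46.6 to 77.8) of those below the 25th percentile were intergenic. The share was 27.3% (15.1 to 44.2) between the median and the 75th percentile and 37.8% (24.1 to 53.9) between the 75th and 90th. It was 3 of 19 between the 90th and 95th percentile and 1 of 5 in the highest 1%.

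Most nuclear intergenic sites stood alone. A called peak is a single nucleotide that the authors' caller marked as crosslinked, and every intergenic site had one at its centre. Within 50 nt of a nuclear intergenic site on its strand lay a median of 5 called peaks, and within 500 nt a median of 6. Counts of called peaks here and below are for the strand of the site unless both strands are named. Gene-assigned nuclear sites had medians of 8 and 34, so their peaks continued along the RNA. At 109 of 141 nuclear intergenic sites (77.3%, 69.7 to 83.4) all called peaks of the 500 nt on each side lay within 50 nt of the site. This was so at 5.11% (4.55 to 5.73) of nuclear gene-assigned sites and at 121 of 468 sites (25.9%) in protein-coding genes with 1 site.

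Sites in tRNA and small nucleolar RNA genes, which are short, had a similar layout. Their called peaks lay within 50 nt at 49 of 56 nuclear tRNA sites (87.5%, 76.4 to 93.8) and at 9 of 12 nuclear small nucleolar RNA sites (interval 46.8 to 91.1%). For the spliceosomal small nuclear RNAs the count was 11 of 23 (47.8%, 29.2 to 67.0). Among nuclear sites above the median score the share was 89.9% (82.4 to 94.4) for intergenic sites and 1.08% (0.740 to 1.56) for sites in protein-coding genes. A short stretch of peaks describes where peaks were called, and RNA length was not measured.

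**Figure D2:**
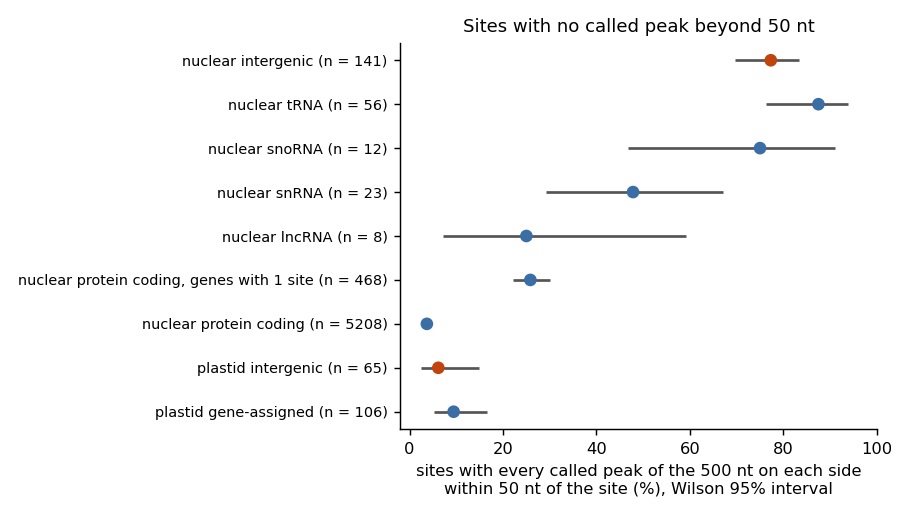
Share of sites (horizontal axis, %) whose called peaks on the same strand within 500 nt on each side all lie within 50 nt. Lines are Wilson 95% intervals, for intergenic sites (orange) and gene-assigned sites (blue) by gene type. Nuclear intergenic sites sit at 77.3% and nuclear tRNA sites at 87.5%, while plastid intergenic sites sit at 6.15% and sites in protein-coding genes at 3.71%.

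The distance to the nearest gene-assigned site split the nuclear sites into an isolated majority and a minority close to a bound gene. On the same strand the nearest gene-assigned site lay a median of 35132 nt away (quartiles 4708 and 103255), and on the other strand 70665 nt away. A gene-assigned site within 500 nt on the same strand was found for 23 of 141 nuclear sites (16.3%, 11.1 to 23.3), and on the other strand for 0 of 141, which allows a share of up to 2.65% by the upper Wilson bound. The 23 sites close to a gene-assigned site had a median score of 6.78 (quartiles 2.73 and 15.9) and a median of 28 called peaks within 500 nt. The other 118 had a median score of 23.8 (14.4 and 50.9) and a median of 5 called peaks in the same window. Of these 118, 108 had no called peak between 50 and 500 nt away on their strand (91.5%, 85.1 to 95.3), against 1 of the 23. A gene-assigned site brings called peaks of its own into the window, so the split itself largely fixes the contrast in called peaks, and nothing is read from it.

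Plastid sites lay nearer to gene-assigned sites. Their median distance on the same strand was 412 nt (quartiles 228 and 753), and 35 of 65 had a gene-assigned site within 500 nt (53.8%, 41.9 to 65.4). On the other strand the median was 3396 nt. The plastid genome is small, with 106 gene-assigned sites and its last listed gene ending at 154312. Positions there tend to lie near a gene-assigned site whatever their kind, so nothing is read from the difference to the nucleus. The 6 mitochondrial sites lay at least 13613 nt from any gene-assigned site.

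**Figure D3:**
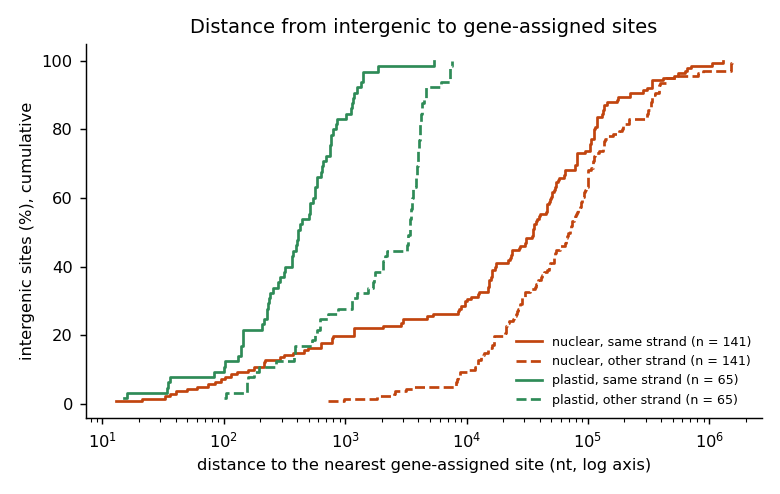
Cumulative share of intergenic sites (vertical axis, %) by distance to the nearest gene-assigned site (nt, log axis), on the same strand (solid) and on the other strand (dashed), for 141 nuclear and 65 plastid sites. The plastid same-strand line crosses 53.8% at 500 nt, where the nuclear same-strand line is at 16.3% and the nuclear other-strand line is at 0.

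Of the 10 nuclear sites with the highest scores, 9 lay at least 12344 nt from any gene-assigned site on their strand. At none of the 10 was there a called peak on the same strand between 50 and 500 nt away. The highest was on chromosome 3 (11586185 to 11586189, plus strand) with a score of 362.8, rank 11 of all sites. It lay inside the span of the long non-coding RNA gene AT3G05955 in the reference gene table and had 2 called peaks within 50 nt. The second, on chromosome 5 (24741492 to 24741496, minus strand), scored 233 between AT5G61520 and AT5G61530, with 5 called peaks.

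One of these sites closed a row of sites without a bound gene. A site on chromosome 2 (11839594 to 11839598, plus strand) scored 219 with 7 called peaks and lay between AT2G27770 and AT2G27775. It was the last of 5 sites on that strand between 11828589 and 11839598, the other scores being 22.3, 19.0, 27.8 and 16.9. At none of these 5 was there a called peak on that strand between 50 and 500 nt away. The nearest gene-assigned sites on that strand were those of AT2G27710, at least 10808 nt away, with scores of 4.55 and 9.92. The highest intergenic score of the row thus stood above both.

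Other high scorers lay beside or inside named genes. A site on chromosome 5 (12593563 to 12593567, minus strand) scored 124 between AT5G33330 and CDR1, an aspartic protease gene. A site on chromosome 2 (9723256 to 9723260, plus strand) scored 122 beside SQE2, a squalene epoxidase gene. On chromosome 5 (10404907 to 10404911, minus strand) a site scored 109 between the pseudogenes AT5G28466 and AT5G28468, with 9 called peaks, all within 50 nt. On chromosome 4 (822670 to 822674, minus strand) a site scored 104 with 2 called peaks, inside the span of GLB1, a PII-type signalling protein gene with no site.

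Some intergenic sites touched genes of small RNAs. In the nuclear genome 7 sites lay inside a tRNA, small nuclear RNA or small nucleolar RNA gene of the reference table or within 10 nt of one. The table gives no strand, so those genes without a gene-assigned site may run on the other strand. This holds for AT2G38030, AT3G51135, AT2G30450, AT1G06880 and U6-26. The fourth-highest nuclear site (chromosome 2, 15916814 to 15916818, plus strand; score 126) was centred 1 nt outside the tRNA gene AT2G38030. A further site was centred 1 nt outside the tRNA gene AT4G18725 (score 16.2), whose own gene-assigned site began 36 nt farther along the RNA. A site of score 55.5 was centred 2 nt from the tRNA gene AT3G51135 and inside the span of the protein-coding gene AT3G51140. On chromosome 2 (12975945 to 12975949) a site of score 34.4 was centred within 2 nt of both the tRNA gene AT2G30450 and the small nucleolar RNA gene AT2G08390.

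The other small RNA neighbours belonged to the splicing machinery and to a small nucleolar RNA. A site of score 20.7 lay inside the span of U12, the small nuclear RNA that pairs with the branch point of minor-class introns, 13 nt before the site that the authors assigned to U12. A site of score 35.9 lay 9 nt from U6-26, a gene of the U6 small nuclear RNA, and 4 nt from the protein-coding gene AT3G13857. The seventh site (score 6.43) lay inside the small nucleolar RNA gene AT1G04527 and 1 nt from the tRNA gene AT1G06880. Apart from these, a site of score 4.36 lay inside the span of AT7SL-1 (AT4G02970), which the reference table lists as protein-coding but names after the 7SL RNA of the signal recognition particle, which guides ribosomes to the endoplasmic reticulum. Near-identical copies of tRNA, U6 and 7SL genes exist, so which copy was bound is uncertain. None of the 212 sites had a ribosomal RNA gene as its nearest bound gene on either strand. Of the ribosomal RNA genes examined, only the nuclear AT3G41768 (5 sites) and AT3G41979 (9 sites) were bound. For the plastid the outcome was thus fixed in advance, and nothing is read from it.

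By the reference gene table, 91 of 141 nuclear intergenic sites were centred outside every gene span, with scores from 1.06 to 233 and a median of 23.9. Inside a span of a gene with no bound site lay 28, with a median score of 22.3. The table gives no strand, so for these 28 the gene may run on the other strand. Inside the span of a bound gene on the same strand lay 21 sites, with a median score of 6.43, and 1 lay on the strand opposite to a bound gene. The last was in CER3, a wax synthesis gene (chromosome 5, 23422579 to 23422583, minus strand; score 14.3), and was the only nuclear intergenic site with called peaks of both strands within 50 nt, 2 on its own and 3 on the other. No nuclear intergenic site lay within 500 nt past the 3' end of a bound gene, and 3 did within 1000 nt. These 3 lay together past AT2G28755, between 12333083 and 12333098 on chromosome 2. Strand, and hence the 3' end, was known for genes with a gene-assigned site only.

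The 21 sites inside bound genes were mostly weak beside the gene's own sites. They fell in 19 genes, scored below the median of the gene's own sites in 18 cases and below the lowest of them in 16. Photosystem genes were among them: in PSBR, which encodes a photosystem II subunit, the intergenic site scored 1.94 and the 7 gene-assigned sites 26.2 to 127. In PSAG and PSAD-1, which encode photosystem I subunits, the intergenic sites scored 1.43 and 10.6, and the lowest gene-assigned scores were 29.6 and 18.1. In PSBTN, a further photosystem II gene, the values were 3.00 and 35.8.

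Further examples came from other kinds of genes. In TCH4, a xyloglucan endotransglucosylase gene, the intergenic site scored 2.46 and the 8 gene-assigned sites 9.49 to 61.5. In GAMMA-TIP, a vacuolar aquaporin gene, the scores were 2.44 against 21.0 to 76.7. PYL4, an abscisic acid receptor gene, held the lowest intergenic score of all, 0.720, against 7.16 for its single gene-assigned site. The exceptions among the 21 in which the intergenic site scored above the gene's median were U12, AT3G15630 (20.5 against 13.3) and 1 of a pair of sites in AT5G19120 (19.8 against 14.9). In 12 of the 21 the nearest gene-assigned site lay downstream and in 9 upstream. The rule that gave the label intergenic inside these genes is not given in the sources used here.

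Intergenic sites were joined into clusters when neighbours on a strand began within 100 nt of each other. This gave 35 clusters of at least 2 sites, which held 93 of the 212 sites (43.9%, 37.4 to 50.6). The share was 28.4% (21.6 to 36.3) in the nucleus and 72.3% (60.4 to 81.7) in the plastid. By the same distance, 48.1% (46.8 to 49.4) of nuclear and 58.5% (49.0 to 67.4) of plastid gene-assigned sites had a neighbour of their own kind. Nuclear clusters were small and tight: 9 pairs, 6 triplets and 1 run of 4, with a median gap of 7 nt between neighbouring starts (quartiles 5 and 14). Gaps of up to 100 nt between nuclear gene-assigned sites had a median of 26 nt (quartiles 9 and 58).

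A pair of triplets on chromosome 2 lay on the minus strand on both sides of AT2G28755 and had the same spacing. The sites of one began at 12333083, 12333089 and 12333094, and those of the other at 12335043, 12335049 and 12335054, 1960 nt away, with gaps of 6 and 5 nt in both. In transcription order the scores were 20.1, 91.7 and 85.9 in the first and 47.5, 119 and 95.9 in the second. Read from the 5' site, 8 positions of called peaks were shared between the 9 of the first triplet and the 10 of the second. The single gene-assigned site of AT2G28755 scored 27.4 and lay on the same strand between them. Whether the triplets are copies of one sequence was not tested, as no genome sequence was used.

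**Figure D4:**
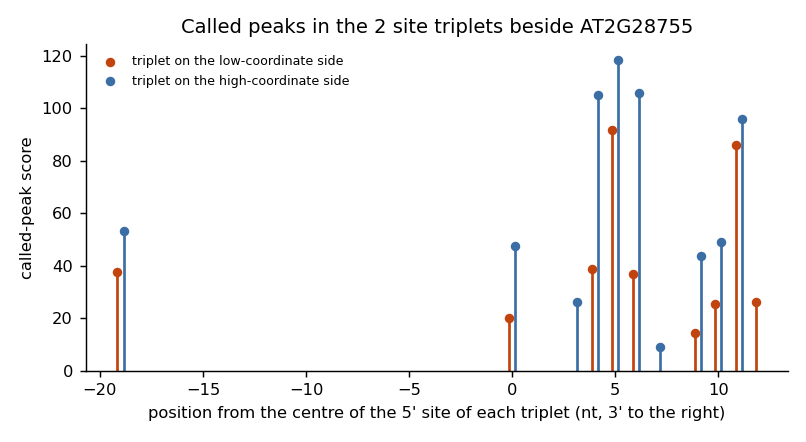
Called-peak scores (vertical axis) in the 2 site triplets on the minus strand of chromosome 2 beside AT2G28755, by position from the centre of the 5' site of each triplet (nt), with lines at a shared position drawn side by side. The triplets share 8 called-peak positions, and in both the middle site carries the highest called peak, at 91.7 and at 119.

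The other large nuclear clusters were single. The triplet with the highest summed score (285) lay on chromosome 5 (4162151 to 4162168, plus strand) between G6PD2, a glucose-6-phosphate dehydrogenase gene, and Pnsl5. Its sites scored 89.3, 92.4 and 104. A triplet on chromosome 1 (6926845 to 6926866, minus strand) beside HVA22H had scores of 58.1, 59.9 and 105. The largest nuclear cluster, 4 sites on chromosome 5 (17475039 to 17475114, plus strand), lay between LURE1.2 and LURE1.3, tandem genes of pollen tube attractant peptides. Its gaps were 23, 25 and 23 nt and its scores 24.6, 10.5, 12.3 and 8.47, so its sites were evenly spaced. The nearest gene-assigned sites on that strand were those of KCS20, a fatty acid elongation gene, at least 111284 nt away.

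Few bound nuclear genes gathered several intergenic sites, and most that did were far away. AT2G28755 was the nearest bound gene on the strand to 6 sites, AT2G27710 to 5, and KCS20 and TCH4 to 4 each. AT1G20225, AT3G31440, UBQ10 (a polyubiquitin gene), NAC083 (a transcription factor gene), the tRNA gene AT5G32017 and AT5G35416 were so for 3 each. Of these 10, the genes with a site closest to an intergenic site were AT2G28755 (777 nt), TCH4 (114 nt) and AT5G32017 (2055 nt), and for UBQ10 the distance was at least 338093 nt.

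In the plastid, 55 of the 65 sites could be read against single genes or groups of genes known to be transcribed together. A further 8 lay inside or within 10 nt of tRNA genes. The groups were taken from textbook gene order. Closeness to a gene was not required: the site at 32044, 606 nt from the nearest gene span, was counted on the 5' side of psbD. Many plastid positions could meet so wide a rule, and no share was computed for other positions. Nothing is therefore read from the count of 55. Between 2 neighbouring genes of a group (psbN left aside) lay 22 sites, with scores of 1.80 to 24.8. Within a gene span lay 14, all in rbcL. On the 3' side of a group's gene lay 12 and on the 5' side 7. Counted on the 5' side were 2 sites, at 35613 and 35624, that also lay between psbC and psbZ of one group. The tRNA gene trnS lies in that same gap. The last 2, at 8395 and 8402 on the plus strand, lay between the tRNA genes trnS and trnG with scores of 12.6 and 5.52. Of the 106 plastid gene-assigned sites, 79 could be matched to a gene of the reference table, and 77 of these lay inside it.

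The longest run was that of rbcL, which encodes the large subunit of Rubisco, the enzyme that fixes carbon dioxide. On the plus strand, 16 intergenic sites ran from 54829 to 55962 with scores of 1.69 to 49.5 and a median of 14.3. The first 2, with scores of 29.2 and 8.19, lay before the gene span of the reference table and the other 14 inside it. The authors' table assigned 4 more sites to rbcL, from 56172 to 56436, with scores of 16.3 to 37.3. Intergenic and gene-assigned scores thus overlapped, and the intergenic sites all lay 5' of the gene-assigned ones. The largest cluster of the list, 8 sites between 55328 and 55633, was part of this run, with the highest score, 49.5, at its 5' end.

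At psbA, the gene of the D1 protein of photosystem II, intergenic sites lay at both ends of the gene on the minus strand. The site at 1446 to 1450 scored 69.1 and lay on the 5' side, 15 nt before the first gene-assigned site, which scored 88.5. On the 3' side the sites at 379, 357 and 351 scored 27.1, 45.8 and 94.2. The 9 gene-assigned sites between them scored 40.1 to 207 and were all labelled coding sequence. The intergenic scores thus fell within the range of the gene's own sites except that at 379.

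**Figure D5:**
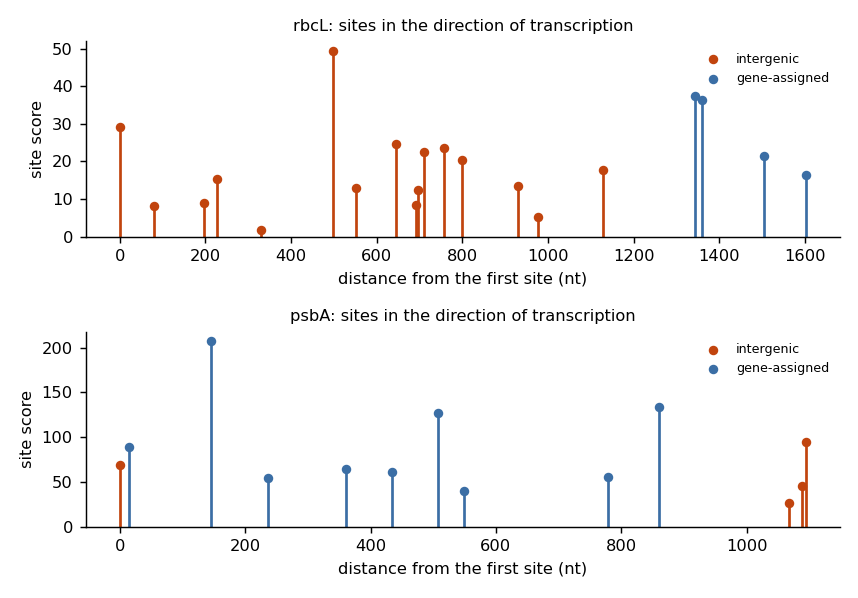
Scores of intergenic (orange) and gene-assigned (blue) sites at the plastid genes rbcL and psbA, by distance from the first site in the direction of transcription (nt). At rbcL the 16 intergenic sites all precede the 4 gene-assigned sites, and at psbA 1 intergenic site precedes and 3 follow the 9 gene-assigned sites.

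Other plastid sites lay in the gaps of photosynthesis operons. In the ATP synthase group atpI-atpH-atpF-atpA, 5 sites lay between atpF and atpH and 2 between atpH and atpI (12932 to 13550, minus strand), with scores of 5.72 to 14.7. The 5 sites assigned to atpF had a median of 16.2. Between psbK and psbI, small photosystem II subunit genes, 4 sites scored 24.8, 10.1, 9.18 and 2.81 (7217 to 7282, plus strand).

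The psbB-psbT-psbH-petB-petD group joins genes of photosystem II and of the cytochrome b6f complex. It held 7 sites in its gaps and 1 past petD. The site between psbB and psbT scored 21.6, the 3 between psbT and psbH 17.1, 2.59 and 5.34, and the 3 between petB and petD 3.48, 1.80 and 4.06. Of the 3 sites between psbT and psbH, 2 lay inside the span of psbN, a gene known to be encoded on the other strand, and all 3 were the only plastid intergenic sites with called peaks of both strands within 50 nt. Sites before psbD and before psbZ, which encode photosystem II subunits, numbered 2 each and scored 5.96 to 10.9. Those before psbZ lay in the gap between psbC and psbZ. A single site scored 11.0 past petD. Past the 3' end of psbJ, 3 sites scored 3.64 to 5.76, and past rps14, a ribosomal protein gene, 3 sites scored 14.4, 29.9 and 31.1. Single sites lay between rps14 and psaB (5.09), psbL and psbF (5.79), psaI and ycf4 (13.6) and psaJ and rpl33 (9.94), and past petN (4.32) and psbM (11.4). Of these sites around the operon genes, those above the plastid gene-assigned median of 19.9 were the pair of 29.9 and 31.1 past rps14, that of 24.8 between psbK and psbI and that of 21.6 between psbB and psbT.

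The highest plastid intergenic site was beside a tRNA gene. It lay 1 nt from trnE (30537 to 30541, minus strand) and scored 131, rank 51 of all sites, with 8 called peaks, all within 50 nt. Sites within 2 nt of trnL, trnH and trnS scored 41.7, 21.5 and 9.01. At each of these 4 sites a site that the authors assigned to a tRNA (ATCG00250, ATCG00400, ATCG00010 and ATCG00370) began 16 to 36 nt farther along the same strand. Inside spans of 2 trnS genes lay 4 sites on the minus strand, at 7818, 7837, 35344 and 35349, with scores of 27.1, 29.6, 12.3 and 29.5. The reference table does not give the strand of these trnS genes.

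The 6 mitochondrial sites formed 2 clusters. On the minus strand 4 sites between 127006 and 127263 scored 11.2, 29.7, 16.6 and 2.14, and on the plus strand 2 sites between 362801 and 362814 scored 8.59 and 13.9. Their nearest gene-assigned site on the minus strand, 13613 to 13866 nt away, belonged to ATMG00513. No gene-assigned mitochondrial site lay on the plus strand. None of the 8 gene-assigned mitochondrial sites fell inside its own gene in the reference table, so that table was not used to name neighbours in this genome.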

How the data were processed

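The data were iCLIP2 libraries of 3 replicates (18 PCR cycles, 50 nt reads). The submitters' processing notes name the aligner STAR 2.7.3a, bedtools 2.27.1, UMI-tools 1.0 for molecular barcodes, FastQC 0.11.5 and the build TAIR10. Which tool called peaks and sites, and how the score is defined, is not given in the sources used here. Files deposited by the authors pool the replicates and hold the authors' scores of 72935 called peaks and 5673 binding sites, and a count of sites for each of 1504 target genes. All 212 intergenic sites were 5 nt wide, were at the same position in both deposited site lists, and had a deposited score equal to the highest called-peak score inside (tolerance 0.001). Coordinates are 1-based TAIR10 positions.

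Shares, medians, distances between site starts and peak windows around site centres were computed with pandas 2.3.3 and SciPy 1.17.1 and checked on simulated positions. Gene spans of TAIR10.1 (no strand) were used to name neighbours and to place sites inside, beside or outside genes. Of the matched nuclear gene-assigned sites, 99.8% lay inside their own gene. No genome sequence was used. Named sites were the 10 highest and the highest of each of the 5 largest clusters in the nuclear and the plastid genome, and all mitochondrial sites. Named genes were their neighbours and those nearest to at least 3 sites; other examples were chosen after their values were seen. Sites, gene groups and windows were chosen with earlier results of these data known. No test over sites was run.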

Additional observations from a re-analysis of the deposited data

How the results depend on the processing

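No paired analysis was possible because there was 1 group and no value per replicate, which also means that no replicate could be left out. The intergenic share of all sites was 3.74%, 4.62% above the median score and 2.57% in the nucleus. The plastid share of intergenic sites, 30.7%, was 22.1% above the median score and 22.7% with clusters in place of sites. The median score, 17.5 over all intergenic sites, was 20.8 in the nucleus. The median number of called peaks around a site, 6 within 50 nt, was 5 within 25 nt and 8 within 100 nt. The share with a gene-assigned site within 500 nt on the same strand, 27.4%, was 13.7% at 200 nt, 38.7% at 1000 nt and 16.3% in the nucleus. The share of nuclear sites with all called peaks close by, 77.3%, was 68.1% with an inner window of 25 nt and 89.9% above the median score, alternatives chosen after seeing the data. Nuclear gene-assigned sites ranged from 2.17% to 10.2% over the windows tried. The plus-strand share, the share in clusters and the share within 500 nt past a 3' end stayed inside their 95% intervals under the alternatives tried.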
